A study of Mus musculus with 2 samples.

Results

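Among 8534 cells kept from a sort of medullary thymic epithelial cells (mTECs), 76 (0.891%) carried RNA of dendritic and myeloid cells. They were chosen by their RNA. A cell, here a droplet barcode with at least 1000 unique molecular identifiers (UMIs, counts of single RNA molecules) over genes, at least 500 genes and under 15% mitochondrial UMIs, was a member if at least 4 of 9 genes had a UMI in it. These were Tyrobp, Spi1, Itgax, Cd209a, Havcr2, Wdfy4, Ms4a4c, Ms4a6c and Zfp366. Cells with 3 or more of the 5 tuft cell genes Avil, Trpm5, Pou2f3, Plcb2 and Gnb3 were left out. This removed 16 of the 92 cells that passed the first part.

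The study gave female wild-type C57BL/6J mice, 4 weeks old, phosphate-buffered saline (PBS) with or without 15 mg/kg of spermidine, by intraperitoneal injection on 7 days in a row. It asked how the polyamine spermidine alters RNA in mTECs, the cells that display antigens of other organs to developing T cells. The thymus was digested with collagenase and dispase, CD45+ cells were depleted on beads, and flow cytometry then collected mTEChi and post-Aire mTEClo cells. The 4 labelled samples, 2 per treatment, were tagged with hashtag antibodies against CD45 and MHC class I and pooled into 1 droplet run. The run also held hashtags HT6 and HT7, which the labels tie to no sample. They were called on 1227 and 1205 kept cells, of which 9 and 6 were members. The treatment of these members is not known, and they count only in values over all members, clusters or 1-hashtag members. Since CD45 (encoded by Ptprc) is the common surface protein of leukocytes, the depletion and the sort set how many dendritic cells remained, and the cells described here are those that passed both. The labels do not tie replicates to individual mice, so every p-value reflects the spread among hashed samples alone, and that spread may be technical.

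Dendritic cells take up proteins, cut them in endosomes and present the peptides on MHC class II. In the thymic medulla they are known to acquire antigens and surface proteins from mTECs, and to help delete self-reactive T cells and to induce regulatory T cells. Type 1 conventional dendritic cells carry the chemokine receptor Xcr1 and the dead-cell receptor Clec9a. Type 2 cells carry Sirpa and lectins such as Mgl2 and Cd209a, and activated cells of either type switch on Ccr7, Fscn1 and Ccl22.

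Treatment was read from the hashtag on each cell, so the following barcode oligos, printed 5′ to 3′ as the labels give them, carry every comparison of spermidine with PBS. The letters are in lower case since no part of an oligo was singled out.
HT4, PBS replicate 1: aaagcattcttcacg
HT5, PBS replicate 2: ctttgtctttgtgag
HT2, spermidine replicate 1: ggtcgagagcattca
HT3, spermidine replicate 2: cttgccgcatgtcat

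The run held 12139 barcodes with 158263030 gene UMIs, and the RNA and hashtag libraries share all of these barcodes since they come as 1 matrix. The 76 members had 1958 to 93200 UMIs each, with a median of 20984.5, and 1747818 UMIs in all. Their median was 4598 genes and 1.49% mitochondrial UMIs, and the other 8458 kept cells had a median of 15874 UMIs. Values below are in CPM, the UMIs of a gene scaled to 1000000 UMIs in all, over the summed UMIs of a group of cells. They are 3′ counts that carry no gene length, and CPM is compared between cells for 1 gene, not between genes. Intervals cover counting error only.

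The genes of the rule are high in members by choice, and their values only describe the set. The rule also used the contrast with other kept cells, so all values against them are a description with no test. Tyrobp, the adaptor of activating myeloid receptors, had a UMI in 75 of the 76 cells. Spi1, the myeloid master transcription factor PU.1, had one in 73, Wdfy4, which serves cross-presentation, in 65, and Itgax, the integrin CD11c, in 62. Havcr2 (the receptor TIM-3) had one in 60 and Zfp366, a dendritic zinc-finger protein, in 56. The lectin gene Cd209a had one in 28, and Ccl17, a chemokine that draws Ccr4+ T cells and is not in the rule, had a UMI in 39.

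The summed level of Itgax (mm10 chromosome 7, 128129547 to 128150657, plus strand) was 174 CPM in members and 0.780 CPM in other kept cells, a ratio of 223. The ratio was 193 for Cd209a, 143 for Havcr2, 127 for Zfp366, 64.8 for Tyrobp, 60.3 for Wdfy4, 28.1 for Spi1 and 83.7 for Ccl17. The membrane proteins Ms4a4c and Ms4a6c had ratios of 171 and 139. These ratios follow from the rule and support nothing.

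Free RNA in droplets can give a UMI to any cell, so each cell of at least 5000 UMIs was thinned to 5000 and the members were set beside thymocyte-like cells, which should lack myeloid genes. These are 239 kept cells, none of them members, with UMIs in at least 4 thymocyte markers and a median depth of 7364 UMIs. The set is mixed, as 69 of them also had at least 10 UMIs of the epithelial keratins Krt8 and Krt18. The thinning kept 70 members and 169 thymocyte-like cells. Of genes outside the rule, the co-stimulator Cd86 then had a UMI in 71.4% of members and 5.92% of thymocyte-like cells, and Flt3, the growth factor receptor of dendritic cells, in 51.4% and 1.18%. The lectin Clec7a had one in 45.7% of members and in 0 of 169 thymocyte-like cells, which allows a share of up to 1.78%. Ptprc, the gene of the depleted CD45, had one in 72.9% of members, in 87.6% of thymocyte-like cells and in 0.980% of cells with Aire RNA. Cells with Aire RNA are kept cells with at least 3 Aire UMIs. Members, thymocyte-like cells and cells with 3 or more of the tuft genes were left out of them, so some cells with leukocyte RNA were removed by choice.

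At the edge of the rule, the 14 members with exactly 4 of the 9 genes had a median of 29694 UMIs, with Tyrobp in 92.9% and Itgax in 50.0% of cells. The 42 cells with exactly 3 genes, just outside, had a median of 18651 UMIs, with Tyrobp in 85.7% and Itgax in 14.3%. All 9 genes were found in 25 members.

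Marker lists of dendritic, other myeloid and other cell types were counted in the members. A gene was counted where it had at least 200 UMIs in the pooled run. A ratio of summed CPM over 2 was reached by 1427 of 18329 counted genes (7.79%), and a ratio under 0.5 by 5122 (27.9%). Nothing is read from list counts against these shares, since the rule used the contrast. Of the type 2 dendritic markers 8 of 8 counted genes were over 2-fold higher in members, of type 1 markers 7 of 9, and of pan-leukocyte genes 8 of 12, such as Cd53 (ratio 35.4), the actin regulator Coro1a (11.7) and Ptprc (9.63). Of plasmacytoid dendritic markers 6 of 9 passed, of activated dendritic markers 6 of 16, of macrophage markers 7 of 14 and of monocyte markers 6 of 11.

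Thymocyte, B cell and epithelial markers were mostly not above the rest of the sort, while some genes of natural killer cells were. Thymocyte markers summed to 49.8 CPM in members and 2710 CPM in thymocyte-like cells, with 1 of 10 over 2-fold against all other kept cells. Of the B cell markers 2 of 9 passed. The natural killer and innate lymphoid list summed to 82.4 CPM in members and 21.5 CPM in other kept cells, with 2 of 3 counted genes over 2-fold, and 1 member held 87.0% of the UMIs of its cytotoxic granule gene Nkg7. The receptor genes Klrk1 and Klrb1b, known from natural killer cells, had UMIs in 23 and 37 members and ratios of 98.0 and 97.0. Epithelial genes summed to 2179 CPM in members and 7940 CPM in other kept cells, with 0 of 16 over 2-fold and 13 under 0.5.

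**Figure D1:**
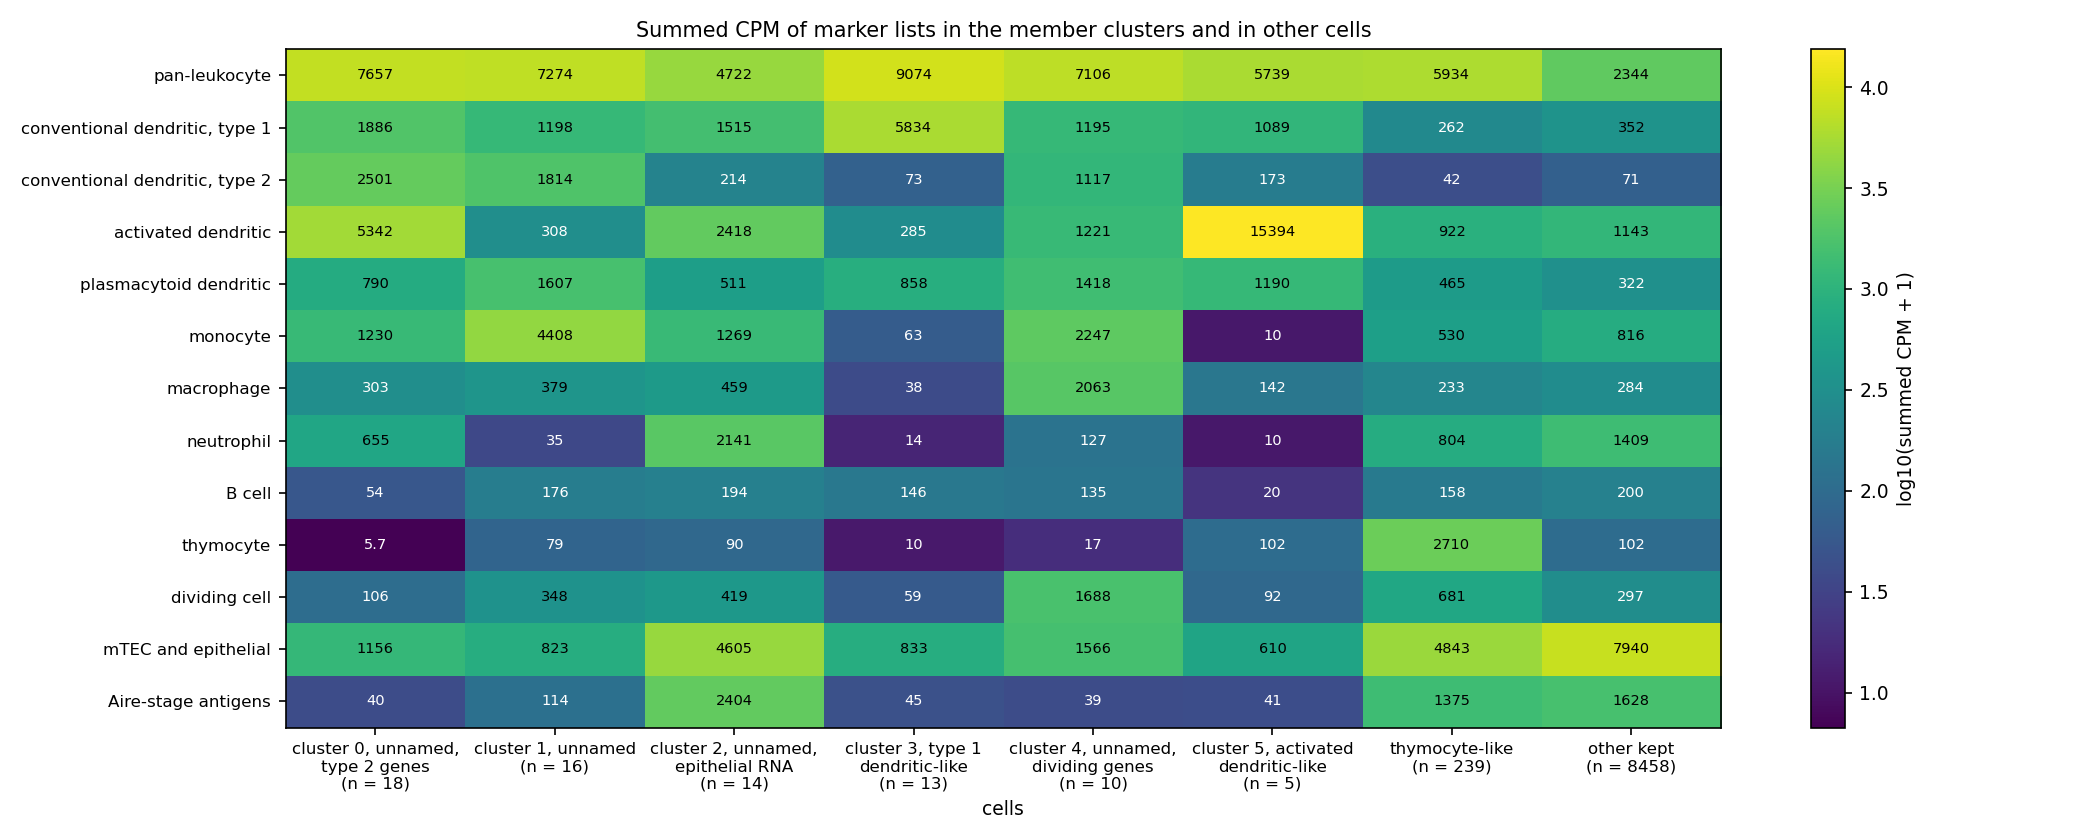
Summed CPM of 13 marker lists (rows) in the 6 clusters of members, in thymocyte-like cells and in other kept cells (columns, with numbers of cells). Colour is log10 of summed CPM + 1 and each box prints the summed CPM. Type 1 dendritic markers peak in cluster 3, activated markers in cluster 5, and the thymocyte list stays at or below 102 CPM in every member cluster against 2710 CPM in thymocyte-like cells.

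Genes that lead the members without being in the rule are mostly receptors. Of the 20 genes with the largest ratios among those with a UMI in at least 25% of members, 6 were genes of the rule and the next were the thrombin receptor gene F2rl2 (ratio 214), the lectin Cd209d (159) and the orphan receptor Gpr141 (148). The lectin Clec4n (119), the leukotriene receptor Cysltr1 (114), the pore-forming phagosome protein Mpeg1 (109), Clec9a (103) and Clec7a (90.8), the receptor for fungal beta-glucan, followed. The septin Septin3 had a ratio of 123 and the endocytic adaptor Dab2 one of 93.4.

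Genes of MHC class II presentation were high beside mTECs, which present on class II themselves, while the summed CPM of class I genes was not. The MHC class II list summed to 54053 CPM in members and 21507 CPM in other kept cells, and 7 of its 10 genes were over 2-fold higher. Among these the beta chain H2-Ab1 was at 10975 CPM against 3936 CPM, and the peptide editor H2-DMa at 630 CPM against 123 CPM. H2-Oa, which restrains that editor, was at 154 CPM against 214 CPM. Against the 2230 cells with Aire RNA alone, H2-Ab1 was at 10975 CPM against 6614 CPM and the invariant chain Cd74 at 22286 CPM against 17377 CPM. The class I list summed to 10497 CPM in members, 11360 CPM in other kept cells and 12143 CPM in cells with Aire RNA. Of its 12 genes 4 were over 2-fold and 0 under 0.5, with a median ratio of 1.35 (0.763 over all counted genes). The light chain B2m had a ratio of 0.779. Of 12 counted genes of uptake and scavenging 5 passed, and of the endosomal proteases 6 of 10. Ctss, the protease that trims the invariant chain in dendritic cells, had a ratio of 6.23, and Ctsl, its counterpart in cortical epithelium, one of 0.241.

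Of 10 genes of co-stimulation and co-inhibition 5 were over 2-fold and 1 was under 0.5. Cd86 (ratio 18.6) and the maturation marker Cd83 (23.2) were high, while Cd80, Cd40 and Cd274 (PD-L1) had ratios of 1.48, 1.74 and 1.08. Of 8 counted C-type lectins 7 passed, with Mgl2 at 71.4. Of 9 chemokine receptors 7 passed, led by Xcr1 (72.4), the monocyte receptor Ccr2 (12.7) and Cxcr4 (11.9). Among 12 chemokine ligands 5 passed: Ccl17, Ccl4 (23.4), Ccl22 (12.2), Cxcl16 (5.62) and Ccl3 (4.72). Ligands known from mTECs were lower, Ccl20 at 0.297 and Cxcl10 at 0.18.

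Lineage regulators of dendritic cells were among the higher genes. The growth factor receptor Flt3, on which dendritic cells depend, had a ratio of 26.6, Batf3, required for type 1 cells, 6.44, Id2 4.26 and Zbtb46, a dendritic lineage factor, 4.02. Of 20 interferon-stimulated genes 11 passed, with Trim30a at 9.35 and Isg15 at 4.32. Of 16 polyamine genes 0 passed and 1 was under 0.5, with the rate-limiting enzyme Odc1 at 0.546. Il10, an anti-inflammatory cytokine, had 0 UMIs in the 76 members, which allows up to 1.72 CPM, against 43.3 CPM in other kept cells, at least 25.2-fold lower by a floor of 3 counts over all members.

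Clustering the 76 members alone gave 6 clusters. The genes of the clusters describe them and are no test. Cluster 0 (18 cells) had 9 of 12 type 2 dendritic markers over 2-fold above the other members. It was given no name, since none of its 10 leading genes is on that list. These were led by Olr1, Egr2, Flt1, Ms4a4a and Clec4d, with 83.3% of the Olr1 UMIs in 1 cell. It held Mgl2 at 999 CPM, Clec7a at 1348 CPM, the interleukin Il1b at 1391 CPM and Ccl17 at 4094 CPM. Of 15 immediate early and heat shock genes 8 were also over 2-fold higher there, such as the mRNA decay factor Zfp36 at 1193 CPM. Cluster 1 (16 cells) shared 9 of 12 type 2 markers and also had 8 of 11 monocyte markers, and was likewise left unnamed. The lysozyme gene Lyz2 stood at 1638 CPM there and Plac8 at 1480 CPM, against 77.3 and 91.6 CPM in cluster 0. It was led by Siglech, of which 1 cell held 90.3% of the UMIs, Cd14, Cx3cr1, Ly6i and Lair1.

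Cluster 3 (13 cells) was type 1 dendritic-like, with 10 of 12 type 1 markers. Xcr1 was at 510 CPM and Clec9a at 181 CPM, each with a UMI in all 13 cells, and Irf8, the transcription factor of this lineage, was at 1358 CPM against 34.3 CPM in cluster 0. Irf4, its type 2 counterpart, was at 240 CPM in cluster 0 and had 0 UMIs in cluster 3, which allows up to 10.4 CPM. Cluster 3 was led by Gm973, Notch4, Gm16124, the profilin sensor Tlr11 and the lysosomal GTPase Rab7b.

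Markers of both types were set side by side in single cells. Xcr1 had a UMI in 20 members and Cd209a in 28, and 0 of 76 had both, which allows a share of up to 3.95%. Cd209a is a gene of the rule and Xcr1 is not. Of the 20 cells with Xcr1, 17 had Clec9a, and of the 28 with Cd209a, 24 had Mgl2. The other type 2 marker did not separate in this way: 7 of the 20 cells with Xcr1 had Mgl2 (5 of 12 among 1-hashtag members), and 1 cell had both Clec9a and Cd209a.

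Cluster 5 (5 cells) was activated dendritic-like, with 15 of 16 activated markers, and was led by Apol7c, the interleukin 12 subunit Il12b, Ikzf4, Nipal1 and Gypc. The lymph-homing receptor Ccr7 was at 651 CPM with a UMI in all 5 cells, the actin bundler Fscn1 at 1862 CPM, the amino acid oxidase Il4i1 at 1923 CPM and Cd40 at 1150 CPM. Its genes of the rule summed to 1343 CPM against 5236 CPM in cluster 0, and Wdfy4 was at 20.3 CPM there against 1465 CPM. The neighbouring chemokine genes Ccl17 (chromosome 8, 94810453 to 94812036) and Ccl22 (chromosome 8, 94745590 to 94751699) differed in place: cluster 5 held Ccl22 at 4141 and Ccl17 at 2320 CPM, and cluster 0 held Ccl22 at 638 and Ccl17 at 4094 CPM.

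Clusters 4 and 2 were given no name either. Cluster 4 (10 cells) had all 10 dividing-cell markers over 2-fold above the other members, but Top2a and Ube2c had a UMI in 50.0% and Mki67 in 40.0% of its cells. It also carried Mgl2 (537 CPM) and Clec7a (1008 CPM), and its leading genes were H2-M5, Ccna2, Hist1h2ap and the complement genes C1qb and C1qa, with 88.6% of the C1qa UMIs in 1 cell. Cluster 2 (14 cells) carried epithelial RNA, with 11 of 16 epithelial markers over 2-fold above the other members, Krt8 at 1105 CPM and Aire at 623 CPM. The casein gene Csn2, an Aire-stage antigen, was at 1342 CPM with a UMI in all 14 cells. Olfm3, Thrsp, Il13, Hamp2 and Skint4 led it.

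**Figure D2:**
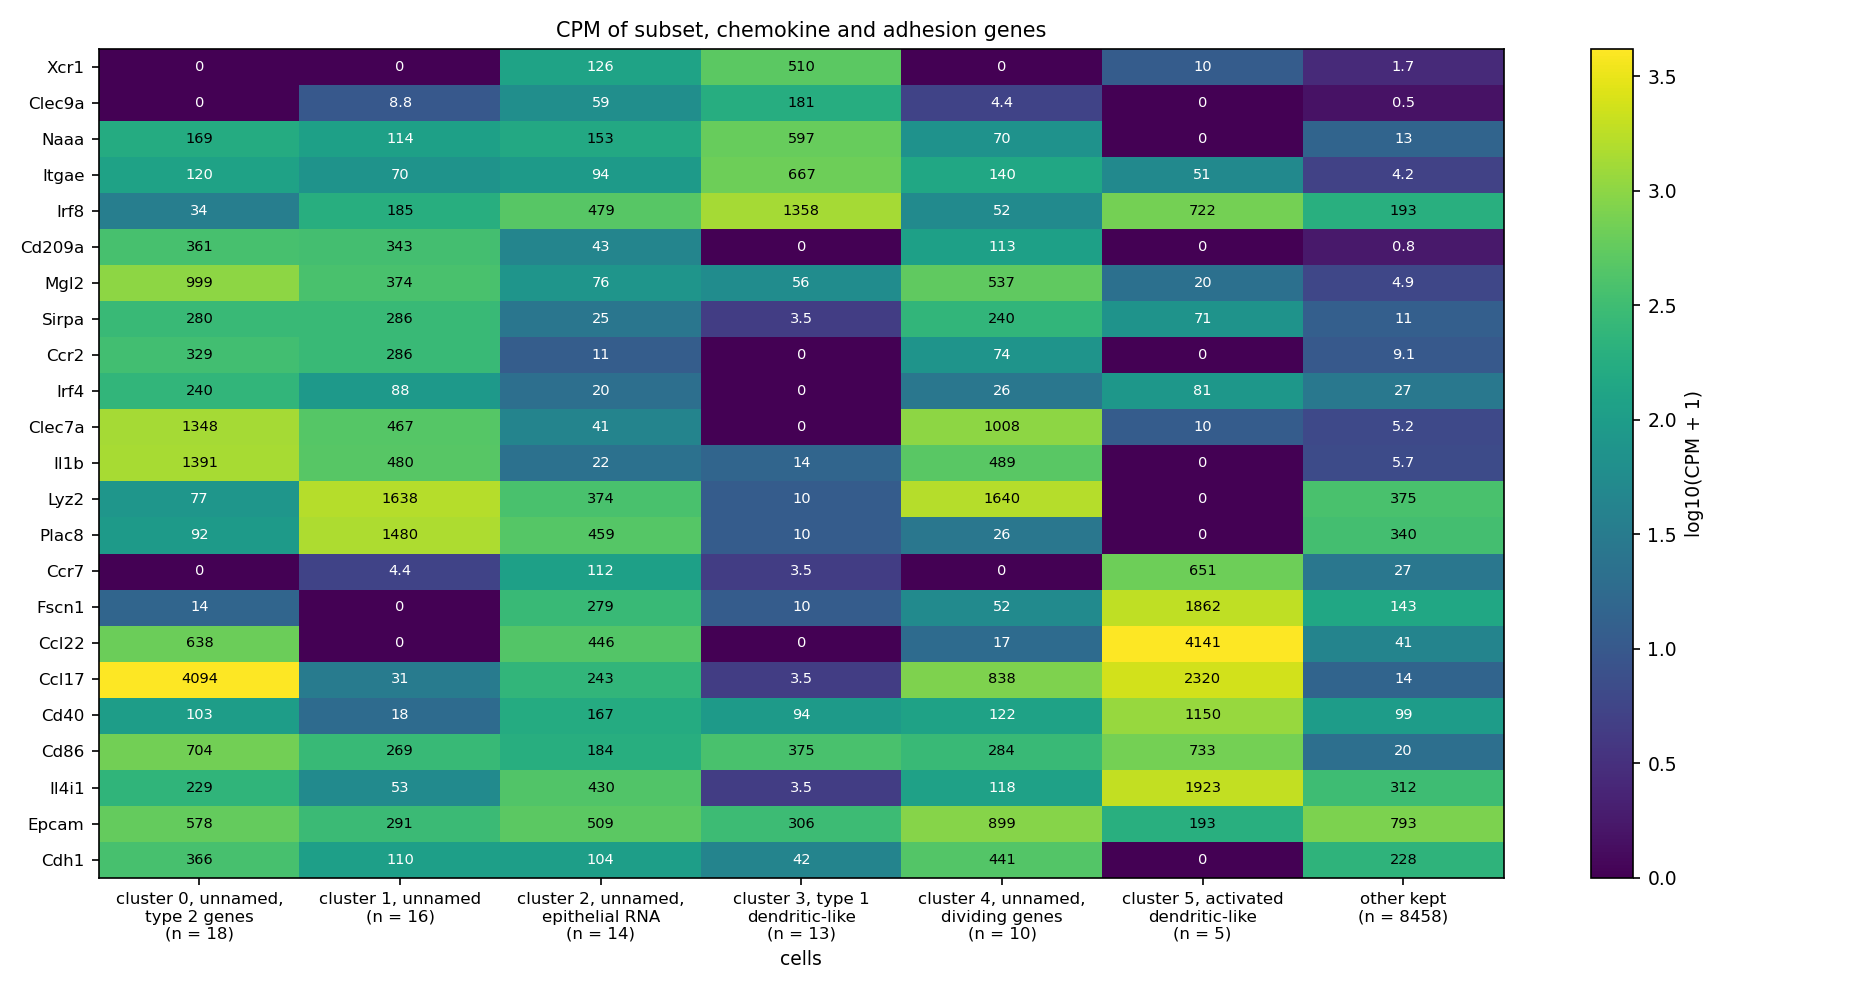
CPM of subset, chemokine and adhesion genes (rows) in the 6 clusters of members and in other kept cells (columns, with numbers of cells). Colour is log10 of CPM + 1 and each box prints the CPM. Xcr1 is at 510 CPM in cluster 3 and has 0 UMIs in clusters 0, 1 and 4 (up to 8.58, 13.2 and 13.1 CPM), while Ccr7 is at 651 CPM in cluster 5 and at most 112 CPM in the others.

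Hashtags bore on cluster 2. By HTODemux, which calls a cell a doublet when 2 or more hashtags are above background, 18 of 76 members were doublets (23.7%, exact 95% interval 14.7 to 34.8%) and 1813 of the 8458 other kept cells (21.4%). Of these 18, 11 were in cluster 2, where they made up 78.6% of cells, and the median depth there was 35381.5 UMIs against 20984.5 over all members. Doublets within 1 hashtag cannot be seen this way, and doublets were not called from RNA.

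Epcam, the adhesion molecule by which thymic epithelium is often sorted, had a UMI in 67 of 76 members. In a part of the members with 1 hashtag it came with little keratin RNA. In the 55 members with 1 hashtag there were 627 Epcam UMIs and 504 UMIs of the epithelial keratins Krt8 and Krt18, or 1.24 Epcam UMIs per keratin UMI. The same ratio was 0.260 in other kept cells, 0.318 in thymocyte-like cells and 0.265 in cells with Aire RNA. These groups hold cells of any hashtag call, and over all 76 members the ratio was 0.790. In the 18 members with 2 or more hashtags it was 0.403. Epcam RNA thus came with fewer keratin UMIs in 1-hashtag members than in these other groups, which were not limited in the same way. Sample by sample, with 1 hashtag on all cells, this held against thymocyte-like cells in 3 of 4 samples.

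Thinned to 5000 UMIs, Epcam had a UMI in 73.1% of 1-hashtag members, 44.4% of thymocyte-like cells and 86.8% of cells with Aire RNA. For Krt8 the order was different, with 19.2%, 55.0% and 96.3%. The thinned groups held 52, 169 and 2143 cells, and only the members were limited to 1 hashtag. Of the 239 thymocyte-like cells before thinning, 44 had at least 10 Epcam UMIs and 69 at least 10 keratin UMIs. Their medians were 0 and 1, so the values of this group come in large part from cells with epithelial RNA. The part of free RNA in the Epcam UMIs of members was not tested.

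These UMIs were concentrated in some cells. With at least 10 Epcam and at most 2 keratin UMIs, limits chosen after the values were seen, 14 of the 55 1-hashtag members qualified (25.5%, exact 95% interval 14.7 to 39.0%), against 52 of 8458 other kept cells (0.615%), 0 of 239 thymocyte-like cells (up to 1.26%) and 1 of 2230 cells with Aire RNA. Of the members with 2 or more hashtags 0 of 18 qualified, which allows up to 16.7%. The groups other than members hold cells of any hashtag call, and of all 76 members 14 (18.4%) qualified. Cluster 0 held 6 of them, clusters 1 and 4 held 3 each and cluster 3 held 2. Epcam per keratin UMI was 8.42 in cluster 0 and 10.3 in cluster 4, against 1.65 in cluster 1, 1.73 in cluster 3 and 0.296 in cluster 2. The cadherin Cdh1 was also highest in clusters 0 and 4, at 366 and 441 CPM, against 228 CPM in other kept cells and 41.7 CPM in cluster 3.

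In the 4 hashed samples such cells were 3 of 12 and 1 of 10 members with PBS. With spermidine they were 3 of 9 and 4 of 9. It was 0% of thymocyte-like cells in each sample and 0.390 to 1.03% of other kept cells. These shares are a description with no test, since the limits were chosen on the same cells and depth differed, with a median of 20179 UMIs in 1-hashtag members and 7364 in thymocyte-like cells. Epcam per keratin UMI was 4.47 and 0.724 with PBS and 0.427 and 10.9 with spermidine. In thymocyte-like cells it was 0.583, 0.901, 0.330 and 0.409 in the same order. The members were above these in 3 of 4 samples and above cells with Aire RNA in 4 of 4. These counts are a description too, since the keratins were singled out after values of the same cells were seen. In PBS replicate 2 and spermidine replicate 1 the summed ratios of members and thymocyte-like cells lay close together. There 1 member held 73 of the 87 and 269 of the 279 keratin UMIs of the members, so these 2 ratios rest largely on 1 cell each.

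**Figure D3:**
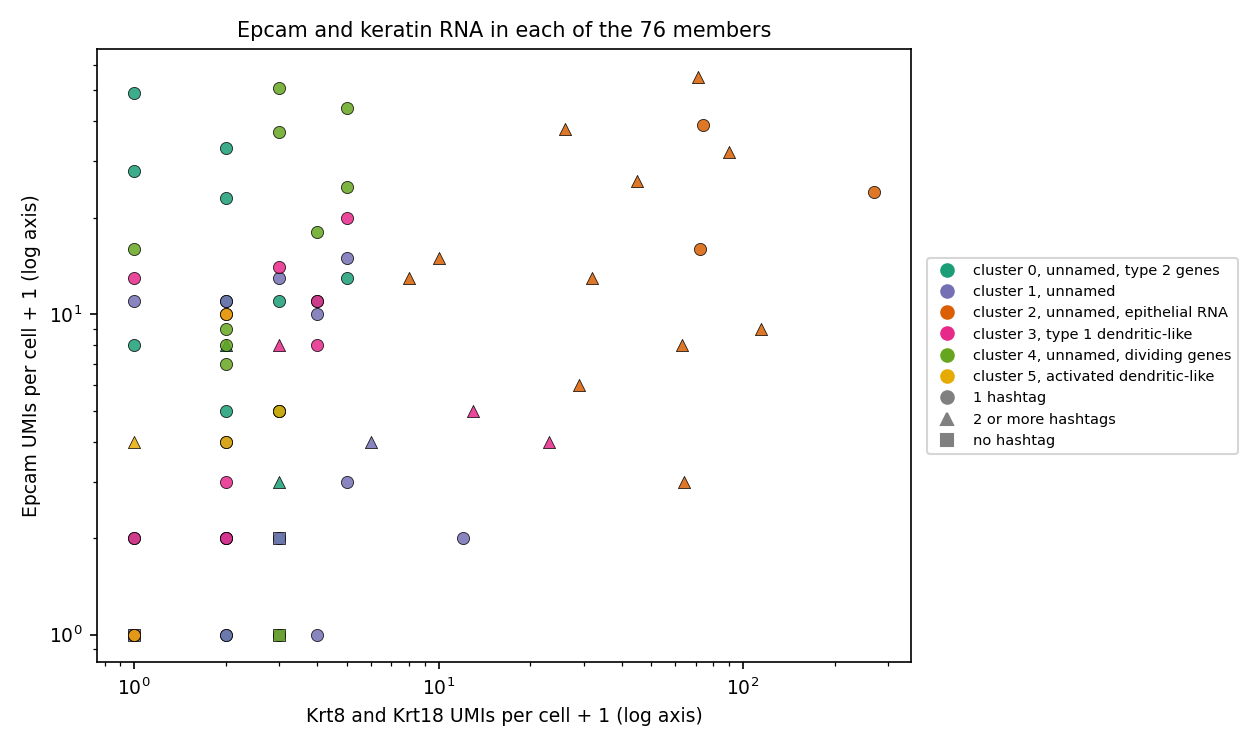
Epcam UMIs + 1 (vertical, log axis) against Krt8 and Krt18 UMIs + 1 (horizontal, log axis) in each of the 76 members, coloured by cluster, with circles for 1 hashtag, triangles for 2 or more and squares for none. Cluster 2 lies to the right with keratin RNA, while cells of clusters 0 and 4 reach 48 and 50 Epcam UMIs with at most 4 keratin UMIs.

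The share of members differed between treatments by less than the spread of the samples allows to tell. They were 12 of 1078 kept cells (1.11%, exact 95% interval 0.577 to 1.94%) and 10 of 784 (1.28%) in the PBS samples, and 9 of 1099 (0.819%) and 9 of 778 (1.16%) in the spermidine samples. The groups overlapped, at 1.19% ± 0.115 (SD, n = 2) and 0.988% ± 0.239 (SD, n = 2), with a two-sided exact permutation p = 0.667. With 2 samples against 2 the test cannot go below 0.333. Under the 4 labelled hashtags alone the difference of -0.206 percentage points turned to 0.0242, and with at least 5 genes of the rule to 0.0785.

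**Figure D4:**
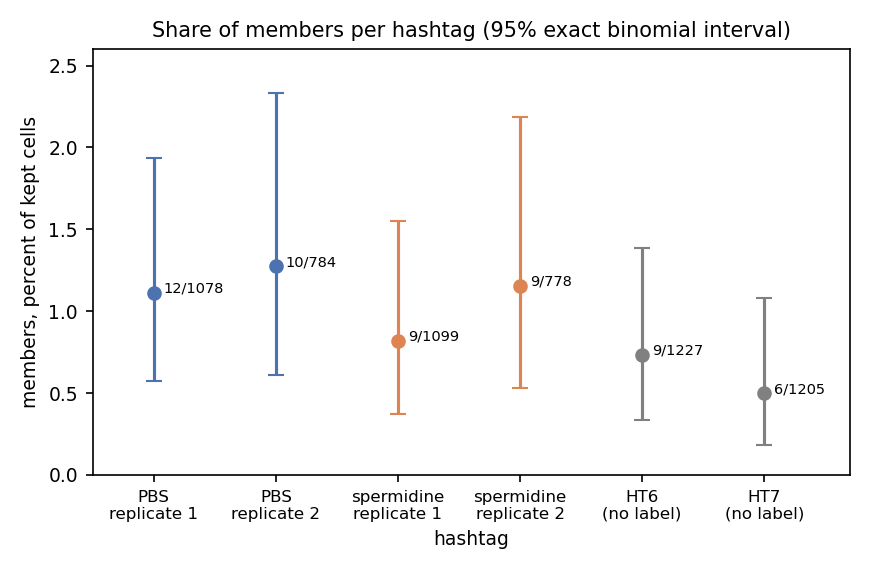
Members as a percent of kept cells for each hashtag (points) with exact 95% binomial intervals (bars) and the numbers of cells beside each point. All intervals overlap, from 0.498% for HT7 to 1.28% for PBS replicate 2, and HT6 and HT7 carry no sample in the labels.

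The mix of clusters rested on few cells per sample. Cluster 1, with its monocyte markers, held 3 of 12 and 5 of 10 members of the PBS samples, against 0 of 9 and 1 of 9 of the spermidine samples (37.5% ± 17.7 against 5.56% ± 7.86, SD, n = 2, exact permutation p = 0.333). Cluster 4 held 1 of 12 and 0 of 10 with PBS and 2 of 9 in each spermidine sample (4.17% ± 5.89 against 22.2% ± 0.0, SD, n = 2, exact permutation p = 0.333). These were the clusters whose shares did not overlap between treatments. Cluster 0, the largest, held 6 of 12, 1 of 10, 3 of 9 and 4 of 9 members in the order PBS 1 and 2, spermidine 1 and 2, and cluster 3 held 1, 2, 1 and 2 cells. Over the 10 exact tests between treatments the smallest adjusted p was 0.952.

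Counts of the members were summed per sample, over 167405 to 224316 UMIs, and fitted with edgeR's quasi-likelihood test, with a spermidine and a PBS group of 2 samples each. Of 3490 genes tested, 0 (0%) passed an adjusted p of 0.05 (Benjamini-Hochberg), while 105 had an unadjusted p under 0.05. DESeq2, without that filter on low counts, tested 15264 genes and called 0 as well, with 71 at an unadjusted p under 0.05. The CPM of both spermidine samples lay outside the range of both PBS samples, on 1 side, for 1061 genes (30.4%). The sums rest on 9 to 12 cells per sample, and the genes below are those of smallest p, none of which passed. Fewer cells of a kind and less RNA per cell cannot be told apart in these sums.

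Among genes at higher values with spermidine, the 5 of smallest p were Mt3, Cd207, Ifi27l2a, Mt1 and Ube2c. The metallothionein Mt3 had 30.6 and 21.7 normalised CPM with PBS and 301 and 389 with spermidine. Its log2 fold change was 3.65 (SE 0.46, adjusted p = 0.0699, edgeR). A single cell held 78.0% of the Mt3 UMIs of spermidine replicate 1 and another 53.0% of those of replicate 2, and cluster 3 held 160 of the 237 Mt3 UMIs of all members. Leaving out a sample moved the call: Mt3 had adjusted p = 0.00813 without PBS replicate 1, 2.44e-05 without PBS replicate 2, 0.270 without spermidine replicate 1 and 2.00e-05 without spermidine replicate 2 (edgeR, where a lone sample is assumed to vary like the rest).

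Cd207, the lectin langerin, had 20.4 and 36.1 normalised CPM with PBS and 230 and 377 with spermidine (log2 fold change 3.43, SE 0.51, adjusted p = 0.144, edgeR). Cd207 had a UMI in 1 of 12 and 2 of 10 cells with PBS, and in 3 of 9 in each spermidine sample. Over all members, also those outside the 4 samples, cluster 3 held 130 of its 215 UMIs, and clusters 0 and 1 held 0. The share of cluster 3 cells was 14.2% ± 8.25 with PBS and 16.7% ± 7.86 with spermidine (SD, n = 2). Whether the mix of clusters bears on Cd207 was not tested. With the 4 labelled hashtags alone the fold change of Cd207 was 1.35 and that of Mt3 2.58. The interferon-induced Ifi27l2a, whose near-identical copy Ifi27l2b makes its count uncertain, was spread more evenly. It had 1046 and 998 CPM with PBS and 2297 and 2208 with spermidine, a UMI in 11 of 12, 8 of 10, 9 of 9 and 9 of 9 cells, and no cell with more than 43.5% of a sample's UMIs (log2 fold change 1.14, SE 0.22, adjusted p = 0.428, edgeR). Mt1, another metallothionein, was at 76.6 and 43.4 CPM against 373 and 224, and Ube2c, a mitotic enzyme, at 10.2 and 21.7 against 81.7 and 200.2. In Ube2c 1 cell held 81.3% and 97.1% of the UMIs of the spermidine samples.

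Among genes at lower values with spermidine, Rgs1, a brake on chemokine receptor signalling, had 163 and 181 CPM with PBS and 20.4 and 5.89 with spermidine (log2 fold change -3.59, SE 0.58, adjusted p = 0.188, edgeR). The groups lie far apart, but the PBS values came from 3 cells in each sample. Inpp4b, a phosphoinositide phosphatase, was found in 7 of 12 and 6 of 10 cells with PBS, at 271 and 318 CPM against 66.4 and 100.1 (log2 fold change -1.82). The enolase Eno3 was at -2.76, with 93.5% and 92.0% of the UMIs of the PBS samples in 1 cell each, Ralgapa2 at -3.18 with 88.2% in 1 cell of PBS replicate 2, and the myeloid transcription factor Cebpb at -1.92, found in 2 cells of each PBS sample with 66.7% and 88.2% of the UMIs in 1 cell.

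**Figure D5:**
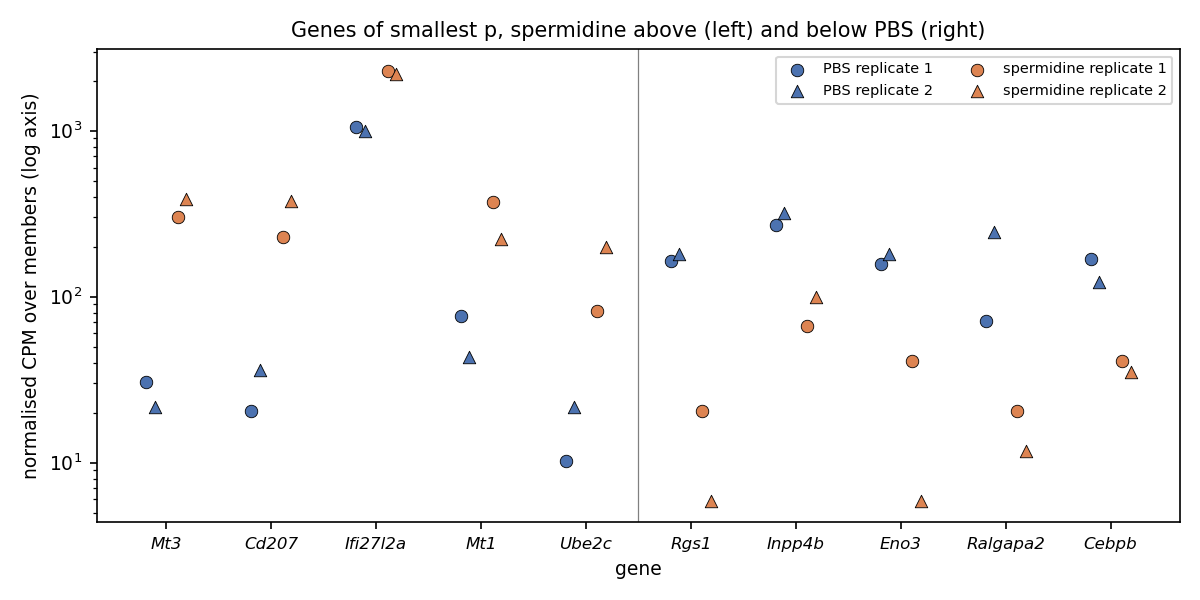
Normalised CPM (vertical, log axis) summed over the members of each hashed sample for the 5 genes of smallest p higher with spermidine (left) and lower (right), with circles for replicate 1 and triangles for replicate 2. The groups do not overlap for any of the 10 genes, none of which passed the adjusted threshold, and Ifi27l2a sits near 1000 CPM with PBS and above 2200 CPM with spermidine.

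Gene lists are given beside all genes tested, of which 1694 of 3490 were at higher values with spermidine, 1061 (30.4%) did not overlap and the median log2 fold change was -0.02. None of the lists held a called gene. Of the 10 MHC class II genes 6 were at higher values with spermidine, the median log2 fold change was 0.25, and 7 did not overlap between treatments. Cd74 was at 23591 and 22540 CPM with PBS and 32469 and 30285 with spermidine (log2 fold change 0.44, SE 0.11, adjusted p = 0.911, edgeR), and H2-Ab1 at 12566 and 12109 against 15436 and 16735. Their transactivator Ciita was on the other side, at 357 and 318 CPM against 291 and 247. MHC class I had 6 genes at higher and 6 at lower values, with a median of 0.01 and 3 of 12 not overlapping. Of 18 interferon-stimulated genes 16 were at higher values, with a median of 0.45 and 8 not overlapping, such as Isg15 at 516 and 325 CPM against 561 and 524.

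The largest medians above 0 belonged to lists with few tested genes. These were macrophage (1.30, 4 genes), epithelial (0.73, 6 genes), dividing cell (0.61, 4 genes) and monocyte (0.52, 4 genes). Of them 0, 2, 1 and 2 genes did not overlap, on either side. Of the 4 monocyte genes 3 were at higher values and 1, Plac8, at lower values. Plac8 did not overlap, at 424 and 824 CPM with PBS and 163 and 11.8 with spermidine (log2 fold change -2.78, SE 0.78, adjusted p = 0.998, edgeR). In the macrophage list 1 cell held 163 of the 164 C1qa UMIs of spermidine replicate 2. The lowest medians were those of Aire-stage antigens (-2.79) and B cell markers (-0.75), with 1 tested gene each. The activated dendritic list had 8 of 12 genes at lower values and a median of -0.30. Ccl22 was at 919 and 1200 CPM with PBS and 531 and 318 with spermidine (log2 fold change -1.31, SE 0.34, adjusted p = 0.911, edgeR). The 9 genes of the rule had a median of 0.12, the 9 tested type 1 markers 0.08 and the 6 tested type 2 markers 0.25. Of 8 tested polyamine genes 6 were at lower values, with a median of -0.16, and Odc1 at 71.5 and 101.2 CPM with PBS and 56.1 and 29.4 with spermidine.

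Epcam in the members was at 388 and 455 normalised CPM with PBS and 607 and 960 with spermidine (log2 fold change 0.89, SE 0.33, adjusted p = 0.998, edgeR), with groups that did not overlap. Epithelial UMIs of all 16 markers made up 0.147% ± 0.0962 of member UMIs with PBS and 0.186% ± 0.079 with spermidine (SD, n = 2, exact permutation p = 0.667). Their part in the Epcam values was not tested.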

How the data were processed

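The authors deposited raw UMI counts for each barcode over genes and hashtags, and the file headers name Cell Ranger 7.1.0. The submitters' processing notes name mm10, bcl2fastq and Seurat. Annotation and cell filter are not given in the sources used here. Positions come from GENCODE M21 (GRCm38, the assembly of mm10), where 359 of 373 genes looked up had the same identifier and version. Cells were assigned to samples with HTODemux of Seurat 5.3.0 (6 hashtags, centred log ratio, positive quantile 0.99), and doublets and negatives were left out of comparisons between treatments. Members were clustered in scanpy 1.11.5 (2000 variable genes, 15 principal components, 10 neighbours, Leiden resolution 1).

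Counts summed per sample were tested with edgeR 4.0.16 in R 4.3.3 (TMM, filterByExpr with minimum count 10 and minimum total 15, Benjamini-Hochberg over all genes tested), and the script was tested on simulated data. DESeq2 1.42.0 was an alternative. The fit had been planned for at least 10 members per sample. The samples held 12, 10, 9 and 9, and the limit was lowered to 9 after these numbers were seen. CPM ratios use a floor of 3 counts. The named genes were those of the rule, the leading genes of the members and of each cluster, the 5 of smallest p on each side, and list members by role. Cdh1, Krt8, Krt18 and the Epcam limits were singled out after values were seen. Members and lists were chosen with earlier results of these data known. Alternatives were other hashtag assignments, rule limits, clustering resolutions, filters, scaling, a replicate block, capped and thinned counts, and leaving out each sample or cluster 2.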

Additional observations from a re-analysis of the deposited data

Results flagged for a closer look

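The labels name no sample for hashtags HT6 and HT7, but members carried both. HT6 was called on 9 members of 1227 kept cells with that call (0.734%, exact 95% interval 0.336 to 1.39%), and HT7 on 6 of 1205 (0.498%, interval 0.183 to 1.08%). These 15 cells belong to no group of the study and enter no comparison between treatments. When only the 4 labelled hashtags were used for assignment, 15 of the 76 members had no call, against 3 with 6 hashtags.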

How the results depend on the processing

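Of 122 alternatives for the named genes in the treatment comparison, 96 kept their direction and side of the threshold. Another 26 passed it where the reported value did not, and 0 reversed. Genes that failed the filter in an alternative have no value there, and all were genes at lower values with spermidine. They were Rgs1, Eno3, Ralgapa2 and Cebpb with at least 5 genes of the rule. Eno3, Ralgapa2 and Cebpb had none without cluster 2, and Cebpb none with 4 hashtags. Among 51 alternatives for the other results 36 stayed, 10 moved and 5 reversed. The cause was not tested for any of these. With at least 3 genes of the rule there were 115 members. The difference in their share between spermidine and PBS was 0.0242 percentage points with 4 hashtags and 0.0785 with at least 5 genes of the rule, and -0.375 to -0.0375 leaving out each sample. The difference in the share of cluster 0 was 8.89, and -11.1 (without PBS replicate 2) to 28.9 leaving out each sample. For epithelial UMIs it was 0.0399, and -0.0281 (without PBS replicate 1) to 0.108, with -0.016 without spermidine replicate 1. The doublet share was 13.2% of members and 17.6% of other kept cells by the margin rule, and 18.4% and 11.7% with the 4 labelled hashtags. Members were thus below other kept cells by the margin rule and above them by both HTODemux assignments. The share of 1-hashtag members with Epcam and little keratin was 40% with up to 5 keratin UMIs and 14.5% with 6 keratins. Genes called by edgeR numbered 2 (Cd63 and Mt3) with at least 5 genes of the rule, 1 (Mt3, adjusted p = 0.0492) without cluster 2, 95 with no filter on low counts, and 0 (without spermidine replicate 1) to 53 (without PBS replicate 1) leaving out each sample, with 41 without PBS replicate 2 or spermidine replicate 2.

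Whether the replicate numbers pair the samples cannot be told from 2 samples per group. The correlation over genes of the deviations of PBS 1 and spermidine 1 was -0.0559. Kept cells numbered 1078 and 1099 in PBS and spermidine replicate 1, and 784 and 778 in replicate 2. With the replicate block edgeR called 0 genes, with 96 at an unadjusted p under 0.05. Depth limits all sample values: 9 to 12 cells per sample leave single cells with most UMIs of several genes.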

Other observations

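Some granulocyte and macrophage genes of the members came largely from 1 cell each, while the macrophage gene Adgre1 had UMIs in 22 members with 14.1% in the top one. Elane, the neutrophil elastase, had 582 UMIs, all in 1 cell of cluster 2, against 12.6 CPM in other kept cells. Of the 508 UMIs of S100a8, a calcium-binding protein of neutrophils that other cells of the sort carry at 739 CPM, 1 of 18 members with a UMI held 54.5%. Of the 248 UMIs of the complement gene C1qa, known from macrophages, 1 of 12 members with a UMI held 65.7%. Siglech, known from plasmacytoid dendritic cells, had 37 UMIs, of which 1 cell of PBS replicate 2 held 28.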
